A study of Mus musculus with 8 samples.

Results

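The miRNAs described here are the products of the miR-23, miR-27 and miR-24 clusters, namely mmu-miR-23a, mmu-miR-27a, mmu-miR-24, mmu-miR-23b and mmu-miR-27b. They were picked by name as the products of these clusters, with earlier results of these data known, and make up 5 of the 1040 mouse miRNA probes of the series. Each is measured by 1 probe with 5 spots per array. All 5 passed the filter on dim probes, which 309 of the 1040 mouse probes passed. Their levels were compared between sorted CD45+ cells and the epithelium of the thymic medulla (mTECs) and of the thymic cortex (cTECs), in a series designed to find miRNAs with differential expression in mTECs. All samples came from NOD wildtype females aged 4 weeks, with no further allele or agent in any group. The groups hold 3 CD45+, 2 cTEC and 3 mTEC replicates, and each isolation of stroma combined thymic tissue of 10 to 12 animals, so that the spread is between pools rather than single mice. In the sort, cTECs carried EpCAM, MHC II and Ly51 without CD45, mTECs had the same markers except Ly51, and CD45+ cells lacked EpCAM. Each RNA, labelled with Cy3 alone, was hybridized to 1 of 8 arrays on 1 slide.

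miRNAs are short RNAs that guide Argonaute proteins to messenger RNAs, mostly by pairing of the bases known as the seed. The miR-23, miR-27 and miR-24 hairpins lie next to each other at a pair of loci in the mouse genome, which arose by duplication, and each cluster is made as 1 primary transcript that Drosha and Dicer cut into separate miRNAs. These miRNAs are found in many tissues. In T cells they are known for restraining activation and effector cytokines, and in bone marrow the miR-23a cluster is known for favouring myeloid over B cell development.

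The sequences show which members can act on the same targets and which have probes of nearly the same sequence. The mature sequences below are from RefSeq (GRCm38.p6), 5′ to 3′, with the seed, bases 2 to 8, in capitals. Matching sequences were found in RefSeq for 4 of the 5 members, and each equals the target of its probe.
miR-23a: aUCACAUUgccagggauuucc
miR-27a: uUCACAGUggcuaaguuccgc
miR-27b: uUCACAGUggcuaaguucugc
miR-24: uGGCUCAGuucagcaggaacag
miR-27a and miR-27b have the same seed and differ by C19U alone, counted from 1 at the 5′ end with the base of miR-27a first. The targets of the miR-23a and miR-23b probes likewise differ at 1 of 21 bases, and this pair shares a seed too. Among the mouse probes no further one has the seed of miR-23 or of miR-27, and 0 others have the seed of miR-24. The probes of a pair may therefore bind each other's miRNA, which was not tested.

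In GRCm38.p6, all on the plus strand, miR-23a lies at chr8:84208563-84208583, miR-27a at chr8:84208727-84208747 and miR-24 at chr8:84208875-84208896. This cluster spans 404 bases from the first to the last hairpin, with 79 bases between the hairpins of miR-23a and miR-27a and 56 between those of miR-27a and miR-24-2, and no RefSeq gene other than the hairpins contains it. In the second cluster miR-27b lies at chr13:63300760-63300780 and miR-24 again at chr13:63301251-63301272. It spans 792 bases in the order miR-23b, miR-27b and miR-24-1, within the gene Aopep, with gaps of 154 and 423 bases. The mature miR-24 is identical at both loci, so its probe sums both clusters, whereas the other 4 probes are each assigned to 1 of them.

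The arrays differed in depth. By the scanner software's flags, 169 to 229 mouse probes were well above background on CD45+ arrays, 98 and 122 on cTEC arrays and 236 to 325 on mTEC arrays. Of the mouse probes, 65 were so on all 8 arrays. Before scaling, their 75th percentile was 2910 and 1364 on the cTEC arrays against 4213 to 11503 on the others. Signals were scaled to that percentile, and in log2 values scaled signals under 621.0 were set to this floor, which is the lowest signal well above background on cTEC replicate 2. On the scale before normalization the miR-27a signal on that array was 25.7, which scaling raised to 109. Marker miRNAs followed the labels for mTECs and CD45+ cells. The summed scaled signal of 5 blood cell miRNAs was 20943 to 25073 in CD45+ cells, 3310 to 4758 in cTECs and 1908 to 2436 in mTECs, and that of 7 epithelial miRNAs was 623 to 704, 4442 to 8620 and 36800 to 39058. On cTEC arrays only 3 of the 7 epithelial probes and 2 of the 5 blood cell probes were well above background on both arrays.

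All 5 members were lowest in cTECs, intermediate in mTECs and highest in CD45+ cells, and in the scaled signals no array of a group overlapped an array of another group for any of them. In other versions of the signals CD45+ and mTEC arrays overlapped for 1 member each. Before scaling miR-24 was at 7625 on mTEC replicate 1 and 7105 on CD45+ replicate 3, and in the deposited log2 table miR-23b was at 12.28 and 12.31 on mTEC replicates 2 and 3 and at 12.27 on CD45+ replicate 3. In the scaled signals such a separation was found for 19.1% of the tested miRNAs with CD45+ above mTEC, 22.3% with CD45+ above cTEC and 18.4% with mTEC above cTEC. The groups are bulk preparations, in which fewer cells of a type and less RNA per cell cannot be told apart. Members were well above background in 36 of the 40 pairs of a member and an array, and there the coefficient of variation over the spots was 1.5% to 20% with a median of 5.82%. The 4 exceptions were all on cTEC arrays, namely miR-27a and miR-23b on cTEC replicate 2 and miR-27b on both.

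miR-23a, the first miRNA of the chromosome 8 cluster, had scaled signals of 3625, 3882 and 3034 on the CD45+ arrays. On cTEC arrays its signals were 1386 and 1133, and on mTEC arrays 2017, 2967 and 2730. The group means were 3514 ± 435 (SD, n = 3), 1259 ± 179 (n = 2) and 2571 ± 495 (n = 3), so that the highest mTEC array came close to the lowest CD45+ array.

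miR-27a, the middle miRNA of this cluster, gave signals of 3025, 3315 and 3096 in CD45+ cells. The mTEC signals of 1644, 2001 and 1764 were well apart from these. In cTECs it gave 666 on replicate 1 and 109 on replicate 2, of which the latter was not well above background. Its means were 3145 ± 151 in CD45+ cells, 1803 ± 182 in mTECs and 387 ± 394 in cTECs (SD), and only in cTECs was the spread as large as the mean.

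miR-24, which both clusters encode, gave 5384, 5379 and 4930 on the CD45+ arrays. On mTEC arrays it gave 3829, 4188 and 4650, the highest of which was near the CD45+ values. The cTEC arrays gave 2310 and 956, the largest disagreement between replicates among the members well above background on all 8 arrays, miR-23a and miR-24. Means were 5231 ± 260 in CD45+ cells, 4222 ± 412 in mTECs and 1633 ± 957 in cTECs (SD).

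miR-23b, the first miRNA of the chromosome 13 cluster, gave 2498, 2700 and 2273 in CD45+ cells. In mTECs it gave 1276, 1982 and 1994, so that replicate 1 lay apart from the others. The cTEC signals were 648 and 554, the latter not well above background. Means were 2490 ± 213.6, 1751 ± 411 and 601 ± 66.8 (SD) in CD45+ cells, mTECs and cTECs.

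miR-27b, which differs from miR-27a at a single base, gave 1596, 1799 and 1531 in CD45+ cells. mTEC signals were 951, 1121 and 1044, again with no overlap. Neither cTEC signal, 338 and 162, was well above background. Means were 1642 ± 140 in CD45+ cells, 1039 ± 85.3 in mTECs and 250 ± 124 in cTECs (SD).

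**Figure D1:**
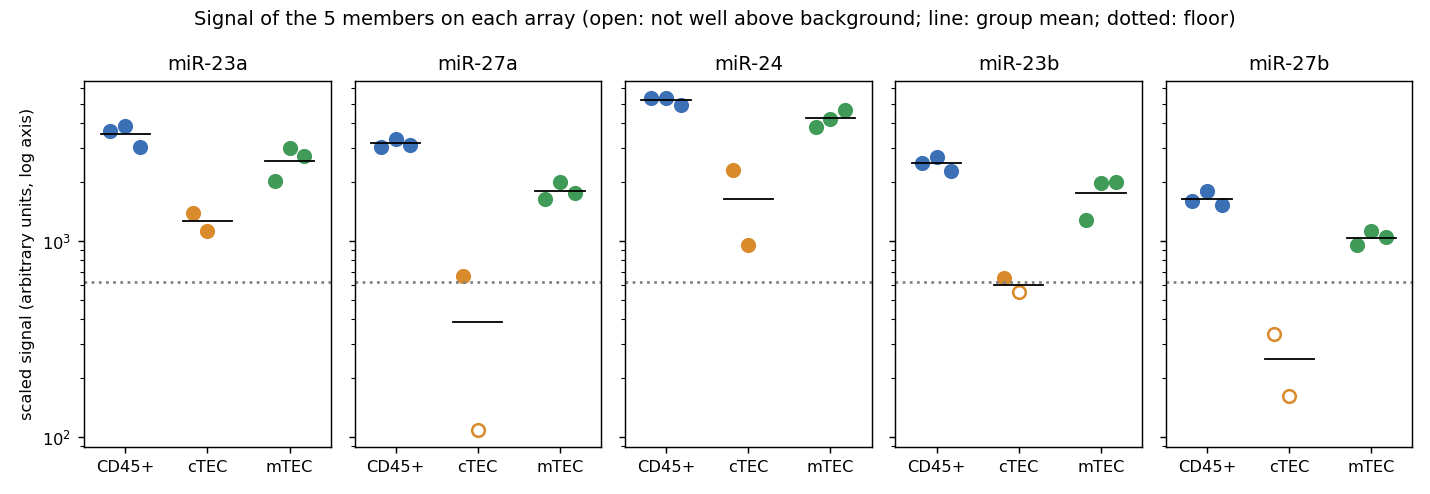
Scaled signal of each member (log axis, arbitrary units) on the 3 CD45+, 2 cTEC and 3 mTEC arrays, with a line at the group mean, open circles where the probe was not well above background and a dotted line at the floor of 621.0. In every panel the CD45+ arrays lie above the mTEC arrays and these above the cTEC arrays, and all 4 open circles are cTEC arrays.

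The replicates within a group moved together. In the scaled signals mTEC replicate 1 was the lowest mTEC array for 5 of 5 members and cTEC replicate 2 the lowest cTEC array for 5 of 5. Among CD45+ arrays, replicate 3 was the lowest for 4 members and replicate 2 the highest for 4. Before scaling, mTEC replicate 1 was instead the highest mTEC array for each member, for miR-24 at 7625 against 3055 and 5159. For miR-27a it was not the lowest in the deposited log2 table, at 12.21 against 12.19 on mTEC replicate 3. Over the 8 arrays, Pearson's r between the log2 signals of 2 members was 0.850 (miR-24 and miR-27b) to 0.990 (miR-23a and miR-23b). Over the 6 CD45+ and mTEC arrays, on which every probe was above the floor, it was 0.853 to 0.991, with miR-27a and miR-27b at the upper end. The members share RNA, scaling and the differences between the groups in these correlations, and those of a pair may share binding to each other's probe, so the correlations are given as a description.

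In mTECs the miR-27 pair was lower than in CD45+ cells, the reference group of the study, while the differences of miR-23a, miR-23b and miR-24 did not pass the test. miR-27a fell by 0.81 on the log2 scale (SE 0.083, 95% interval -1.01 to -0.60, limma adjusted p = 0.000576), which puts its mTEC level at 57.1% of that in CD45+ cells. miR-27b fell by 0.66 (SE 0.082, -0.86 to -0.46, adjusted p = 0.00137), to 63.3%. Thus 2 of the 5 members were called, both lower, where 23.9% of all tested miRNAs were called in this comparison and 14.9% were called lower. The log2 fold change of miR-23b was -0.54 (interval -0.99 to -0.08, limma adjusted p = 0.106), that of miR-23a was -0.46 (-0.90 to -0.02, adjusted p = 0.148) and that of miR-24 was -0.31 (-1.08 to 0.45, adjusted p = 0.924). The median over the members was -0.54, against 0 over all tested miRNAs and 0.02 over the 65 probes that every array measured. Members ranked 31 (miR-27a) to 55 (miR-24) from the lowest of the 309 fold changes.

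The calls of the miR-27 pair depended on the floor and, for miR-27a, on the normalization. With floors set lower, at the lowest or the median limit of the arrays, the fold changes of the pair between mTECs and CD45+ cells stayed as they were, but the cTEC arrays, which share the estimate of the spread, then differed more, and limma adjusted p rose to 0.258 and 0.199 for miR-27a and to 0.110 and 0.0731 for miR-27b. In a fit of the mTEC and CD45+ arrays alone, at the floor of 621.0 and not at the lower floors, both kept their calls (limma adjusted p = 0.00153 and 0.00374). The limma adjusted p of miR-24 in that fit was 0.0549, in place of 0.924. After quantile normalization miR-27a was at -0.46 (adjusted p = 0.726) and in the deposited log2 table at -0.31 (0.0536), while miR-27b passed in both, at -0.58 (0.00677) and at a smaller -0.23 (0.00202). The differences were larger with scaling to the percentile of all mouse probes, -1.65 for miR-27a, -1.50 for miR-27b and -1.38 for miR-23b, and with no scaling, -1.37, -1.23 and -1.10, and all 3 passed in both (limma adjusted p 0.0107 to 0.0405). Without mTEC replicate 1, the lowest mTEC array in the scaled signals, the fold changes of miR-23a and miR-23b shrank to -0.30 and -0.32, and miR-23b passed (limma adjusted p = 0.0404).

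The position of the arrays on the slide bears on the same comparison. Row 1 of the slide held 2 CD45+, 1 cTEC and 1 mTEC array, and row 2 held 1, 1 and 2. Within row 1 and row 2 the mTEC minus CD45+ difference (log2) was -0.95 and -0.72 for miR-27a and -0.83 and -0.50 for miR-27b. For miR-23a it was -0.90 and -0.09, for miR-23b -1.03 and -0.19, and for miR-24 -0.49 and -0.16. All 10 differences had the same sign, those in row 1, which has mTEC replicate 1 as its only mTEC array, being larger for each member. With slide row as a block the miR-27 pair kept its calls (limma adjusted p = 0.00222 and 0.00484).

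In cTECs every member was lower than in CD45+ cells. Of the members measured on both cTEC arrays, miR-24 fell by 1.81 on the log2 scale (95% interval -2.67 to -0.96, limma adjusted p = 0.00808) and miR-23a fell by 1.48 (adjusted p = 0.00172), which puts cTECs at 35.7% of the CD45+ level. miR-27a and miR-23b were well above background on 1 of the 2 cTEC arrays, with the other set to or near the floor. Their fitted values of -2.28 and -1.89 (limma adjusted p = 1.1e-05 and 0.000644) depend on that floor, which also narrows their spread. The intervals drawn for both in the plot of limma fold changes are therefore not to be read as their precision. For miR-27b, with no cTEC array well above background, only a bound exists: the mean over the CD45+ arrays was at least 3.55-fold higher than the cTEC mean, taking for each cTEC array the higher of its detection limit and its own signal (limma adjusted p = 7.76e-05 in the fit with the floor). In all, 5 of 5 members were called lower, where 30.7% of the tested miRNAs were called and 20.1% were called lower. When only the 65 probes well above background on every array were tested, 81.5% were called, 24 of the 65 lower, with miR-23a and miR-24 among these. The median of the members was -1.81, against 0 over all tested miRNAs and 0.47 over the 65 probes that every array measured.

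The size of these differences followed the processing more than their direction did. With the lowest floor the fitted difference from CD45+ cells became -3.54 for miR-27a and -2.92 for miR-27b, and with the median floor -3.28 and -2.82, since their cTEC signals no longer stopped at 621.0. For miR-27b, well above background on neither cTEC array, these are fitted values and no measured size. With no scaling between arrays all 5 lay between -4.37 and -3.72. In the deposited log2 table, whose values rank as the intensity without background subtraction does, they lay between -1.08 and -0.74. Quantile normalization left miR-23a at -0.43 (limma adjusted p = 0.0844). The miR-24 value moved between -2.45 without cTEC replicate 1 and -1.18 without cTEC replicate 2, and within the slide rows it was -2.37 and -1.22 for the rows that hold cTEC replicate 2 and replicate 1.

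**Figure D2:**
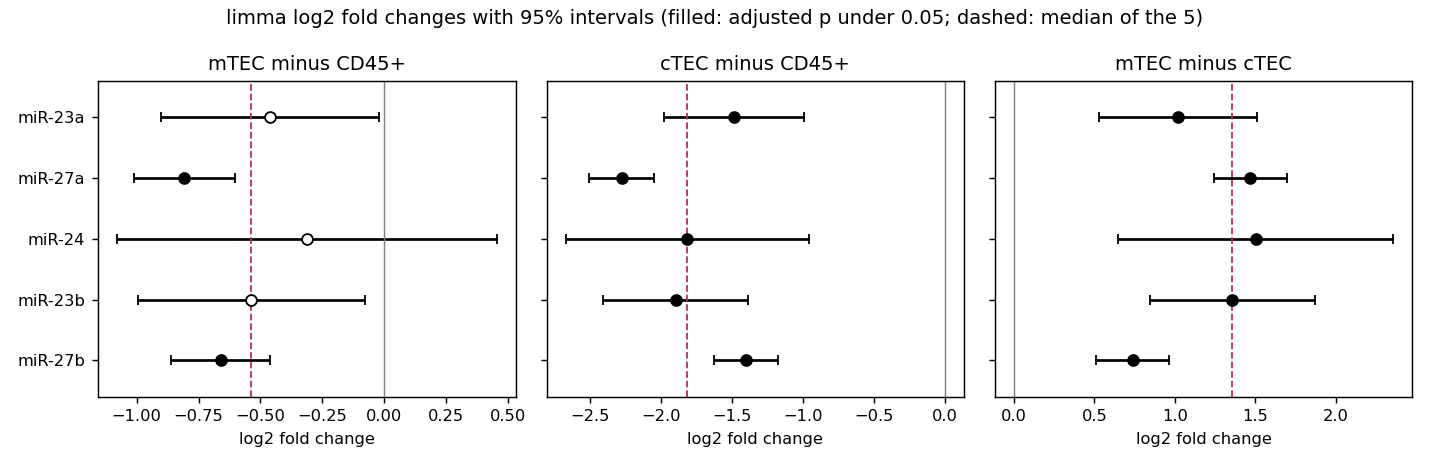
limma log2 fold changes of the 5 members with 95% intervals for the 3 pairwise comparisons, filled where the adjusted p was under 0.05, with a dashed line at the median of the 5. In mTEC minus CD45+ only miR-27a and miR-27b are filled, with the narrowest intervals, and miR-24 has the widest interval in each panel. The cTEC comparisons of miR-27a, miR-23b and miR-27b rest on values at or near the floor. As the groups share the estimate of the spread, these values also enter the intervals of these miRNAs in mTEC minus CD45+.

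Compared with cTECs, mTECs had higher levels of all 5 members. miR-23a rose by 1.02 on the log2 scale, or 2.03-fold (interval 0.53 to 1.51, limma adjusted p = 0.0131). miR-24 rose by 1.50 with a wide interval of 0.64 to 2.36 (limma adjusted p = 0.0262). For miR-27a and miR-23b, each measured on 1 cTEC array, the fitted differences were 1.47 and 1.36 (limma adjusted p = 0.000128 and 0.00443), and that of miR-27a became 2.47 with the median and 2.73 with the lowest floor. miR-27b was at least 2.25-fold higher in mTECs by the same kind of bound. Its limma adjusted p of 0.00207 belongs to the fit with the floor, where the difference was 0.74. These 5 of 5 calls stand beside 22.7% of all tested miRNAs called and 16.2% called higher. With replicate number as a block 3 of 5 were called, beside 19.4% of all tested miRNAs, and miR-23a (limma adjusted p = 0.0633) and miR-24 (0.0823) did not pass. The difference of miR-24 was the least stable: it did not pass in 12 of 23 alternatives, among them each one that left out a CD45+ array (limma adjusted p 0.0540 to 0.0571) or an mTEC array (0.0634 to 0.0772), and it was 0.87 without cTEC replicate 2 and 2.14 without cTEC replicate 1. miR-23a did not pass in 7 of 23, and was at 0.87 (adjusted p = 0.0851) without cTEC replicate 2. In fits with 1 cTEC array left, that array is assumed to vary as the CD45+ and mTEC arrays do. miR-23b did not pass after quantile normalization (1.67, limma adjusted p = 0.0548). miR-27a and miR-27b passed in all 22 alternatives in which they were tested.

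Set against the mean of both epithelial groups, CD45+ cells had the higher level for each member, with log2 fold changes of -1.54 for miR-27a, -1.22 for miR-23b, -1.06 for miR-24, -1.03 for miR-27b and -0.97 for miR-23a (limma adjusted p = 2.02e-05, 0.00174, 0.0302, 0.000112 and 0.00395). This makes 5 of 5 called lower, beside 32.4% of tested miRNAs called and 20.1% called lower. The values of miR-27a, miR-23b and miR-27b include cTEC signals at or near the floor, and with the lowest floor they were -2.17, -1.31 and -1.79. The 4 comparisons share their samples, so that they are not separate evidence. The call of miR-24 was lost in 10 of 22 alternatives, among them each one without a CD45+ or an mTEC array (limma adjusted p 0.0550 to 0.102), the replicate block (0.0778) and slide row as a block (0.0532). After quantile normalization miR-23a (limma adjusted p = 0.130) and miR-23b (0.106) did not pass either.

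**Figure D3:**
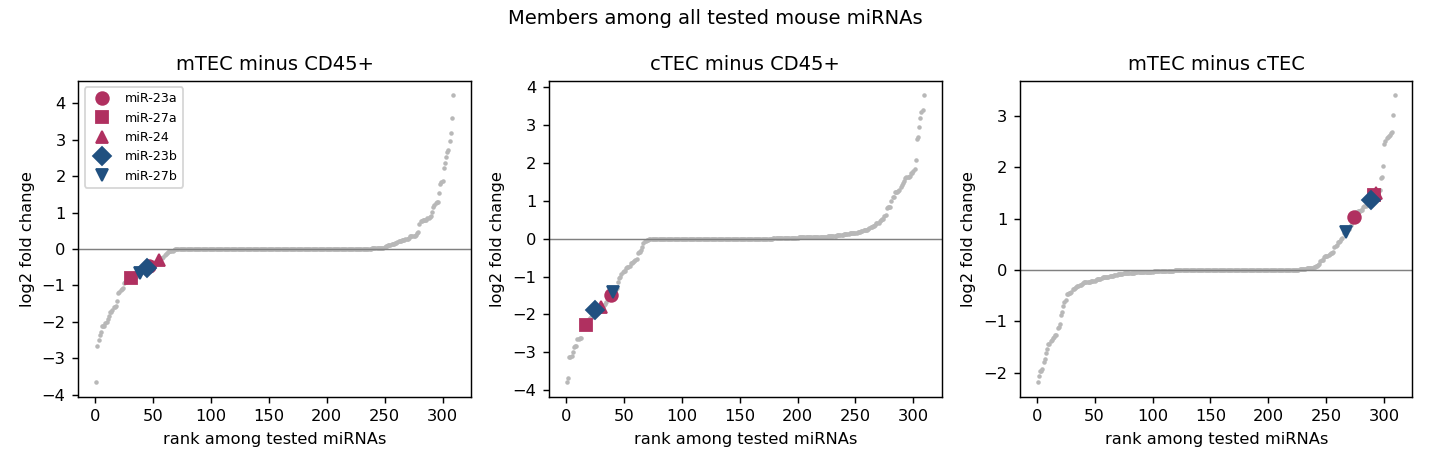
log2 fold changes of the 309 tested miRNAs in rising order (grey) for the 3 pairwise comparisons, with the members of the chromosome 8 cluster in red (miR-24, of both clusters, among them) and those of chromosome 13 in blue. The members sit together on the falling side in both comparisons with CD45+ cells and on the rising side in mTEC minus cTEC, and the flat middle is made of miRNAs at or near the floor.

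The marker miRNAs of blood cells moved with the members in part. From CD45+ cells to mTECs the summed signal of the 5 blood cell miRNAs dropped to between 1908 and 2436 from at least 20943, while the members stood at 57.1% to 80.5% of their CD45+ levels. In cTECs the sum was 3310 and 4758, but 3 of the 5 probes (miR-142-3p, miR-142-5p and miR-223) were well above background on neither cTEC array, and miR-181a alone made up 3615 of the sum on replicate 1, so that no order between cTECs and mTECs is read from it. The sum of 8 mesenchymal and endothelial miRNAs was 524 to 654 in CD45+ cells, 4103 to 8078 in cTECs and 7012 to 7369 in mTECs, with 7, 5 and 3 of these probes well above background on no array of the group. Its miRNAs did not move as 1 group: the endothelial miR-126-3p was at 2615 and 1013 in cTECs and 285 to 503 in mTECs, and miR-145, of smooth muscle and fibroblasts, at 978 and 631 in cTECs and 2771 to 2978 in mTECs. The erythroid miR-144 and miR-451 were well above background on no CD45+ or cTEC array. The part of other cells in the members' levels was not tested.

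Within an array, the ratio of 2 members does not depend on the scaling, as long as both are above the floor. In CD45+ and mTEC arrays this held for all 4 ratios examined. The log2 ratio of miR-23a over miR-23b, a pair with 1 seed from separate loci, was 0.49 ± 0.065 (SD, n = 3) in CD45+ cells and 0.57 ± 0.11 in mTECs, and the arrays overlapped (difference 0.07, exact permutation p = 0.4, two-sided, adjusted over 16 ratio tests 0.427). It was 0.027 without mTEC replicate 1 and 0.13 without mTEC replicate 3. That of miR-27a over miR-27b was 0.88 to 1.02 in CD45+ cells and 0.75 to 0.83 in mTECs. These did not overlap, and the difference of -0.15 had an exact permutation p of 0.1, the smallest that 3 against 3 arrays can give (adjusted 0.246). In the deposited log2 table the arrays overlapped, with a difference of -0.084 (exact permutation test, adjusted p = 0.4).

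Between neighbours of 1 cluster, miR-23a over miR-27a was -0.03 to 0.26 in CD45+ cells and 0.30 to 0.63 in mTECs, without overlap in the scaled signals (difference 0.34, exact permutation p = 0.1, adjusted 0.246). In the deposited log2 table these too overlapped, with a difference of 0.10 (exact permutation test, adjusted p = 0.686). miR-23b over miR-27b averaged 0.60 ± 0.042 in CD45+ cells and 0.72 ± 0.27 in mTECs (SD, exact permutation p = 0.4, adjusted 0.427), with mTEC replicate 1 below and the other mTEC arrays above all CD45+ arrays. The difference of 0.12 became 0.27 without mTEC replicate 1, 0.079 without replicate 2 and 0.020 without replicate 3. None of these 4 ratios passed in mTECs against CD45+ cells, and the exact test of 3 against 3 arrays could not have given a p under 0.1. On cTEC replicate 2 at least 1 probe of each ratio was not well above background, and the ratios there rest on the floor. On cTEC replicate 1 both probes were well above background for miR-23a over miR-23b (1.02) and for miR-23a over miR-27a (1.03). These values were above those of every CD45+ and mTEC array, but miR-23b and miR-27a were near the floor there. miR-27b was well above background on neither cTEC array. Over the 5 epithelial arrays against 3 CD45+ arrays, the difference was -0.44 for miR-27a over miR-27b and 0.52 for miR-23a over miR-27a, each with the smallest possible exact permutation p of 0.0357 (adjusted 0.246), and both rest in part on cTEC values at the floor.

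**Figure D4:**
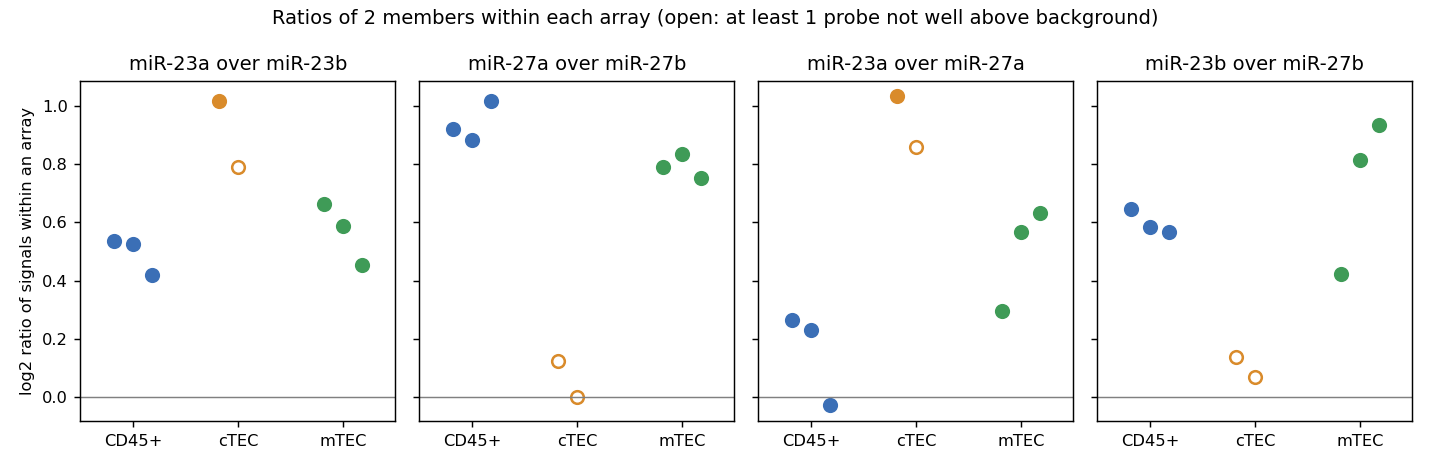
log2 ratio of 2 members within each array for 4 pairs, by group, open where at least 1 of the probes was not well above background. The CD45+ and mTEC arrays overlap for miR-23a over miR-23b and for miR-23b over miR-27b, and lie apart for miR-27a over miR-27b (0.75 to 0.83 in mTECs) and for miR-23a over miR-27a (0.30 to 0.63).

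Probes for 6 opposite strands of these hairpins were present. All lay under the floor on every array, and 4 were well above background on no array. Only miR-24-2*, from the chromosome 8 hairpin of miR-24, passed the filter on dim probes, being well above background on 3 CD45+, 0 cTEC and 2 mTEC arrays. Its scaled signals were 184, 217 and 188 in CD45+ cells, 111 and 207 in cTECs and 179, 141.2 and 150 in mTECs, with the cTEC values not well above background. miR-27a* was well above background on 1 CD45+ array. The CD45+ and mTEC signals of miR-24-2* did not overlap, but all were set to the floor that cTEC replicate 2 gives, so the fit says nothing of a difference, and the other 5 strands were not tested.

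The miRNAs whose log2 signal over the 8 arrays was most like that of a member were looked for among 100 tested miRNAs above the floor on at least 4 arrays. The other members were left out of this ranking, although some were closer. Between members r was 0.990 for miR-23a and miR-23b, 0.985 for miR-27a and miR-27b, and 0.976 for miR-23b and miR-27a. Outside the members, the most alike for miR-27a were miR-107 (r = 0.995), its close relative miR-103 (0.986) and miR-30b (0.983). miR-107 also came first for miR-27b (0.985), followed by miR-17 (0.984) and miR-106b (0.977), a pair with a shared seed. For both miR-23a and miR-23b the first was miR-30c (0.982 and 0.980). miR-24 was most like miR-30d (0.970), miR-26a (0.968) and miR-30c (0.959). The third and the second places for miR-23a were miR-107 (0.965) and miR-30b (0.973), and those for miR-23b miR-425 (0.967) and miR-107 (0.973).

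On cTEC arrays several of these miRNAs were at or near the floor, as were 3 of the members, so that the correlations rest in part on floored values and no size is compared with cTECs. In mTECs against CD45+ cells the log2 fold change of miR-107 was -0.77 (limma adjusted p = 0.000166), next to -0.81 for miR-27a. That of miR-17 was -1.74 (adjusted p = 2.82e-05), next to -0.66 for miR-27b, although their r was 0.984. miR-30d stood at 0.03 (adjusted p = 1) and miR-24 at -0.31.

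**Figure D5:**
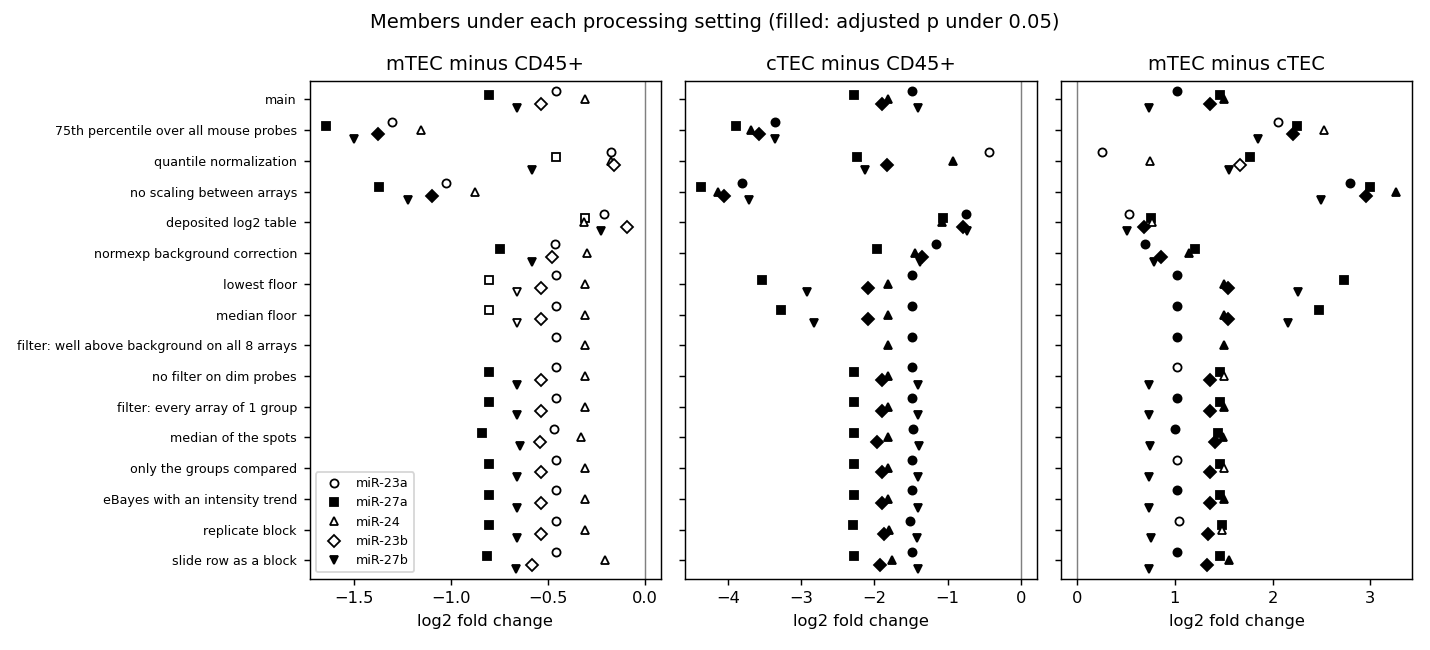
log2 fold change of each member under the main processing and 15 alternatives for the 3 pairwise comparisons, filled where the limma adjusted p was under 0.05. Every point lies on 1 side of zero in each panel, whereas the sizes range from -4.37 to -0.43 in cTEC minus CD45+ and the filled points in mTEC minus CD45+ are mostly miR-27a and miR-27b.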

How the data were processed

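RNA of CD45+ (3 samples), cTEC (2 samples) and mTEC preparations (3 samples) was measured on 8 single-color arrays. The authors deposited each array's scanner output from Feature Extraction 10.7.3.1, which holds raw and background-subtracted spot intensity, and quantile normalized log2 intensity for the mouse probes. On every array the normalized values ranked as the spot intensity without background subtraction did (Spearman correlation 1). Their lowest value per array was 10.85 to 11.19, so fold changes and ratios from them are not on the scale of the background-subtracted signals. The authors' table also holds their own fold changes and p-values, which were not used, and the submitters' processing notes name limma. No column was left without a sample. The background-subtracted intensity was analysed here with limma 3.58.1 (R 4.3.3). Outlier spots (1.09% to 1.85%) were left out, and none was saturated. Arrays were scaled to the 75th percentile of those 65 mouse probes that all 8 arrays measured well above background, floored at 621.0 (9.28 on the log2 scale), and the spots of a probe averaged as log2. The floor makes fold changes against cTECs smaller than measured signals would, and makes groups at the floor look less variable.

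The test covered the 309 of 1040 probes with signal well above background on 2 or more arrays. lmFit and eBayes were run on 1 model of the 3 groups (5 residual and 0.90 prior degrees of freedom), with Benjamini-Hochberg adjustment. Of the probes tested, 83 never exceeded the floor and were counted as unchanged in the adjustment. They also lower the shares called over all tested miRNAs. Calls have an adjusted p under 0.05. Ratios of members were compared by exact two-sided permutation tests. Intervals are 95%, and the number of arrays limits precision.

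Named miRNAs were the members, opposite strands with a probe, probes sharing a seed, and for each member the 3 most correlated miRNAs outside the members. The members, the lists and the floor were chosen with earlier results of these data known. Of the marker lists, miR-199b was matched to no probe. Alternatives were other scalings (all mouse probes as the base of the percentile, quantile, none), the deposited table, normexp with an offset of 50 on median spot intensity, lower floors, other filters, the median of the spots, the compared groups alone, an intensity trend, replicate number or slide row as a block, and leaving out each array. The limma fit was checked on simulated log2 values, with changes in mTECs alone and the same spread on every array. Outlier removal, scaling and the weaker signal of the cTEC arrays were not part of that check.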

Additional observations from a re-analysis of the deposited data

How the results depend on the processing

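In 443 refits of the members' fold changes under the alternatives, 401 kept direction and side of the threshold, 39 kept direction but no longer passed, 3 newly passed and 0 reversed. The number of members called in mTEC minus CD45+, 2 in the report, was 3 with scaling to the percentile of all mouse probes or no scaling, where miR-23b also passed, and 1 with quantile normalization or the deposited table. It was 0 with the lowest or the median floor, and 0 with the filter for probes well above background on all arrays, where only miR-23a and miR-24 were tested (limma, with 0, 2 and 1 at an unadjusted p under 0.05). Of all tested miRNAs 23.9% were called in the report, 35.6% with all mouse probes as the base and 29.8% with no scaling. The share was 26.5% with quantile normalization and 39.2% with the deposited table. It was 45.3% with the lowest floor, 37.2% with the median floor and 47.7% with the filter. In cTEC minus CD45+ that filter gave 2 in place of 5, with only 2 members tested, where 81.5% of the 65 miRNAs tested were called. In mTEC minus cTEC, 5 in the report, the count was 3 with scaling to the percentile of all mouse probes, the deposited table, no filter or the compared groups alone, and 2 with quantile normalization or the filter on all arrays. In the same order, 12.6%, 26.9%, 5.19%, 16.5%, 22.7% and 58.5% of all tested miRNAs were called, against 22.7% in the report. With the filter on all arrays only 2 members, miR-23a and miR-24, were tested, and both were called. Of epithelial against CD45+, 5 in the report, 2 were called with quantile normalization and 2 with the filter on all arrays, beside 36.9% and 72.3% of all tested miRNAs, against 32.4% in the report. Here too the filter left only 2 members to test, and both were called. The fit of the compared groups alone was not run for this last comparison, which uses all groups. Leaving out 1 array gave 2 to 3 called in mTEC minus CD45+, 5 to 5 in cTEC minus CD45+, 4 to 5 in mTEC minus cTEC and 4 to 5 in epithelial minus CD45+. Without a cTEC array the spread comes from the CD45+ and mTEC arrays alone. With the replicate number as a block, 3 of 5 members were called in mTEC minus cTEC, the calls of miR-23a (limma adjusted p = 0.0633) and miR-24 (0.0823) being lost, 2 in mTEC minus CD45+, and 4 of 5 in epithelial minus CD45+, where miR-24 was lost (0.0778). Of all tested miRNAs 19.4%, 22.3% and 30.7% were called with that block in these comparisons. Deviations of same-numbered arrays from their group means correlated at -0.23 to 0.28, with 3 of 7 pairs over 0.1. This cannot decide whether equal numbers mark shared pools, since the deviations of the 2 cTEC arrays mirror each other. Of the ratios, miR-23a over miR-23b reversed in the deposited table for mTEC (-0.12) and for epithelial minus CD45+ (-0.054). miR-23b over miR-27b reversed in cTEC minus CD45+ with normexp (0.026) and the lowest floor (0.84), in mTEC minus cTEC with the lowest floor (-0.71), and in epithelial minus CD45+ with the deposited table (0.060), normexp (0.072) and the lowest floor (0.41). The cause was not tested. Over all tested miRNAs the count called in cTEC minus CD45+ rose from 95 to 250 with normexp, 224 with the lowest and 200 with the median floor, and that in mTEC minus cTEC from 70 to 201, 129 and 130, with 45 higher and 156 lower under normexp against 50 and 20 in the report, and 73 and 0 with no scaling. Medians over all tested miRNAs in cTEC minus CD45+ shifted by 1.38, 0.86 and 0.65 under the first 3 of these and by -0.43 without scaling, and relative to these the members' median lay lower than in the report in all 4. Signals near background on cTEC arrays limit every value there.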
